A study of Mus musculus with 12 samples.

Results

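The 35 genes described here are 21 genes of glycolysis, among them enzymes, glucose and lactate transporters and the kinases that regulate the pathway, and 14 other genes of the response to low oxygen, chosen by name as textbook targets or regulators of the hypoxia-inducible factors (HIF). The choice was made with earlier results of these data known, so counts set beside the share of all genes are descriptive only. Of the 35, 33 had a probe set annotated with that gene alone and 32 were bright enough to be tested, out of 19938 genes with a probe set and 13956 tested. The 32 are 18 genes of glycolysis and all 14 of the others. Gpi1 and Eno1 had no such probe set and were not analysed here, and Slc2a3 was under the brightness limit. RNA came from cultured fibroblasts of mouse embryos, cells of the connective tissue lineage, in 4 groups of 3 arrays: MLL1-KO at 30 h, MLL1-KO at 18 h, WT at 30 h and WT at 18 h. MLL1 is a histone methyltransferase encoded by Kmt2a, and the times, labelled CT30 and CT18, count from a serum shock. All 4 groups were grown with 5% fetal bovine and 5% newborn calf serum and received the same 2 h shock with 50% horse serum, which is used to set the circadian clocks of a culture to one phase. Neither the knockout allele nor the number of embryos or cell lines behind each genotype is given in the labels, so a difference between genotypes cannot be told apart from one between lines. Separate cultures are not stated for the 3 replicates either, so the p-values rest on array-to-array spread that could be technical only.

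Glycolysis converts glucose to pyruvate in the cytosol with a small yield of ATP, and lactate dehydrogenase then reduces pyruvate to lactate, which leaves the cell through monocarboxylate transporters. HIF is a transcription factor of an oxygen-regulated alpha subunit and a stable beta subunit. In oxygenated cells, prolyl hydroxylases mark the alpha subunit for degradation, and in hypoxia it accumulates, binds hypoxia response elements and raises most genes of glycolysis together with genes of blood vessel growth, mitochondrial turnover and collagen maturation. Proliferating fibroblasts in culture are known to take up much glucose and release lactate even with oxygen present.

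Values are intensities per probe set on a linear scale, and differences are on the log2(intensity + 16) scale, KO over WT or 30 h over 18 h. Called means an adjusted p under 0.05 by limma's moderated test over all 13956 genes tested. Median array intensity was between 273.3 and 311.8, and arrays correlated at 0.984 to 0.996 within a group but at 0.771 to 0.831 between genotypes. KO 18 h replicate 1 stood apart on the second principal component. It lay at -9.34, against -25.2 and -24.9 for its group and 20.0 to 24.6 for the KO 30 h arrays. Calls that changed without it are given, for time in WT mainly as a count. Otherwise the values for KO at 18 h include it. Kmt2a read 1338, 1367 and 1584 in KO and 2129, 2155 and 2069 in WT at 30 h (log2 difference -0.57, adjusted p = 0.000111), and 2120.2, 2174 and 1959.7 in KO and 2265, 2824 and 2099.7 in WT at 18 h (log2 difference -0.19, adjusted p = 0.108). The sources used here do not give where its probes lie relative to the disruption, so this reading does not check the labels. Of 12 fibroblast markers, 11 were above the brightness limit in every group and Lum was not, and their summed intensity was 62328 to 66086 in KO and 63653 to 67778 in WT arrays. Within that list Pdgfra averaged 419 and 395 in KO at 30 h and 18 h, against 3297 and 3811 in WT, and Dcn averaged 5662 and 5766 in KO, against 268 and 423 in WT. Of the 11 tested, 4 were called higher and 5 lower in KO at 30 h, and 5 higher and 5 lower at 18 h. Of all genes tested, 52.9% and 60.1% were called at these times. Col3a1 (-2.20 and -2.53), Pdgfrb (-1.85 and -1.63) and S100a4 (-0.695 and -1.51) were lower as well. Of 10 neural and glial markers 8 were tested. Map2, Nes and Tubb3 were higher in KO at both times, and the other 5 tested were not called at either time. The summed intensity of the 10 was 7365 to 8229 in KO and 2104 to 2600 in WT arrays. The part of these marker differences in the results that follow was not tested, and in bulk RNA fewer cells of a type and less RNA per cell cannot be told apart.

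Most of the glycolysis and hypoxia genes were higher in KO than in WT cells at both times. At 30 h 25 of 32 were called higher in KO and 3 lower, so that 28 were called, against 52.9% of all genes tested, of which 24.3% were higher and 28.6% lower. At 18 h 24 were called higher and 5 lower, 29 in all, against 60.1% of all genes, 26.3% higher and 33.8% lower. The median log2 difference of the 32 was 0.67 at 30 h and 0.57 at 18 h, beside 0.02 and -0.03 over all genes tested. Since most genes tested were called at each time, a call by itself does not set a gene of this group apart, and the direction and the size are what the following values describe. The comparisons at the different times use separate arrays but share the estimate of spread. At both times 24 genes were higher in KO, beside 18.9% of all genes, 3 were lower, beside 23.4%, and 1, Egln1, was called in opposite directions, beside 1.34%.

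The glycolysis genes and the other hypoxia genes showed similar counts. Of the 18 glycolysis genes 14 were higher and 2 lower in KO at 30 h, and 14 higher and 3 lower at 18 h, with median log2 differences of 0.67 and 0.53. Of the 14 other genes 11 were higher and 1 lower at 30 h, and 10 higher and 2 lower at 18 h, with medians of 0.63 and 0.67. The KO arrays all lay above the WT arrays for 26 of the 32 genes at 30 h (28.7% of all genes) and for 24 at 18 h (28.0% of all genes). They all lay below the WT arrays for 3 genes at 30 h and 4 at 18 h, so that in either direction 29 and 28 genes were apart, beside 61.5% and 63.1% of all genes.

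**Figure D1:**
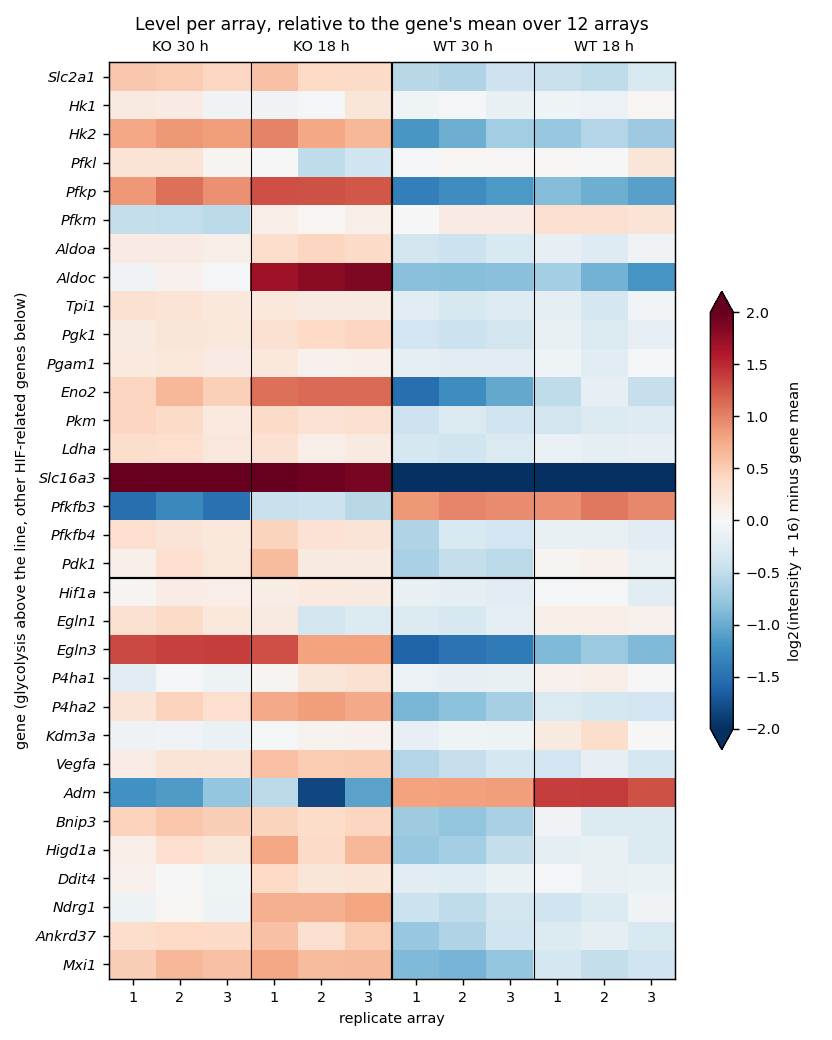
Heat map of the 32 tested genes (rows; glycolysis above the black line, other HIF-related genes below) in the 12 arrays (columns, by group and replicate). Colour is log2(intensity + 16) minus the gene's mean over all 12 arrays, and the scale stops at 2 in either direction. Most rows are red in the 6 KO columns and blue in the 6 WT columns, Pfkfb3 and Adm show the opposite, and Aldoc is dark red in the 3 KO 18 h columns and pale in the 3 KO 30 h columns.

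**Figure D2:**
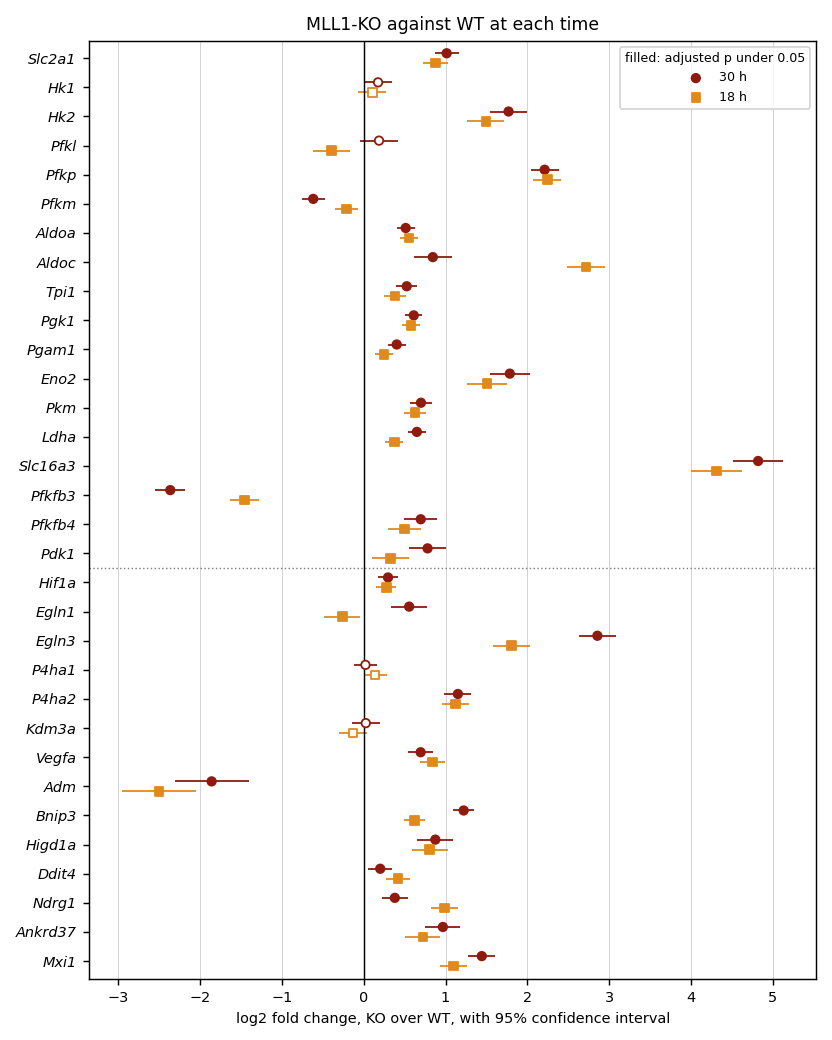
Log2 fold change of KO over WT for each of the 32 genes at 30 h (circles) and 18 h (squares), with 95% confidence intervals from limma; filled symbols are called. Slc16a3 lies farthest right, at 4.82 and 4.31, and Pfkfb3 and Adm lie farthest left.

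The transporters at both ends of the pathway were higher in KO cells. Slc16a3, the monocarboxylate transporter known for lactate export from glycolytic cells, read 2666, 2723 and 2454 in KO and 89.3, 62.9 and 81.0 in WT arrays at 30 h. At 18 h it read 2623, 1813 and 1771 in KO and 84.2, 103 and 75.9 in WT arrays. The transcript was thus bright in every KO array and below the brightness limit of 174.8 in every WT array, with no overlap. The log2 difference was 4.82 (SE 0.15, adjusted p = 3.69e-14) at 30 h and 4.31 (SE 0.15, adjusted p = 1.36e-13) at 18 h, the largest of the 32 genes at both times. Because the WT values are dim, its size depends on the offset: with an offset of 1 it was 5.07 and 4.53, and with 64 it was 4.24 and 3.79.

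Slc2a1, the glucose importer that most cells rely on for basal uptake, read 9774, 9628 and 9014 in KO and 4574, 4451 and 5033 in WT arrays at 30 h. Its 18 h values were 10134, 8866 and 8830.3 in KO and 4926, 4734 and 5456 in WT arrays. Every KO array lay above every WT array, and the log2 difference was 1.01 (SE 0.07, adjusted p = 2.05e-09) at 30 h and 0.88 (SE 0.07, adjusted p = 1.09e-08) at 18 h, which are 2.02-fold and 1.84-fold. Slc2a3, a second glucose importer, read 185, 167 and 209 in KO and 182, 141 and 144 in WT arrays at 30 h, and 211, 185 and 216 in KO and 142, 152 and 163 in WT arrays at 18 h. It was dim in all 12 arrays, and without the brightness limit its log2 difference was 0.24 at 30 h (adjusted p = 0.102) and 0.39 at 18 h (adjusted p = 0.0086).

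Promoter windows from RefSeq (assembly GRCm38.p6) were searched for the core of the hypoxia response element, ACGTG or GCGTG on either strand (CACGT or CACGC when read on the other), in the 250 bases before each gene's start. The core overlaps the E-box CACGTG, which clock and MYC-family proteins bind, and overlapping matches were counted as 1 site. Of the 35 genes 33 had a window, Slc2a3 and Ndrg1 had no entry, and 39 of their 51 windows (76.5%) held a core, against 38.6% of all 32851 windows. The E-box was in 5 of the 51 (9.8%), against 6.0% of all windows. The windows of these genes are richer in G and C, with a median of 61.6% against 52.4%, and of all 9667 windows with 55.2% to 68.0% G and C, the middle range of these genes, 54.7% held a core. The windows of 4 genes with large differences between genotypes are shown, 3 of genes higher in KO and 1, Adm, of a gene lower in KO, with the core matches in capitals. Slc16a3 lies at chr11:120948817-120949066 (+ strand), Egln3 at chr12:54203875-54204124 (- strand), Pfkp at chr13:6648772-6649021 (- strand) and Adm at chr7:110627407-110627656 (+ strand), each written 5′ to 3′ on the gene's strand.
Slc16a3: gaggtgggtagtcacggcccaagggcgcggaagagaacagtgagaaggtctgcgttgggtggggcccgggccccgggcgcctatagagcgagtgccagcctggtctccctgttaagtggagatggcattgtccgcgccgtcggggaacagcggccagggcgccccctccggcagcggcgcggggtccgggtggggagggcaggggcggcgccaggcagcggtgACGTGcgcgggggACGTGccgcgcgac
Egln3: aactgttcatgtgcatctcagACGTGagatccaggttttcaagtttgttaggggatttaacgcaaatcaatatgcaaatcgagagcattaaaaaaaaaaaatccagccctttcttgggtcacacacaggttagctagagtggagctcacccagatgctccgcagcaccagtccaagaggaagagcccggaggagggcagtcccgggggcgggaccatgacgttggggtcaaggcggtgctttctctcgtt
Pfkp: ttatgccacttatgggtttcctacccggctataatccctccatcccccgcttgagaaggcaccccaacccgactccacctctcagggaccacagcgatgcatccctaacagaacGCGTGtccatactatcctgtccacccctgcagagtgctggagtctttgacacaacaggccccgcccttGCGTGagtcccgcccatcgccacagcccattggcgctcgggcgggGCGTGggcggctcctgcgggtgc
Adm: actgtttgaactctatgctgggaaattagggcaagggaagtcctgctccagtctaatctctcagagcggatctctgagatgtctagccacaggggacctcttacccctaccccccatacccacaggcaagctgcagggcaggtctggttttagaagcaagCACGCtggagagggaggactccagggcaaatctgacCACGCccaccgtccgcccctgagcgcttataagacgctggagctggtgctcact
The Slc16a3 window held 2 cores close to the start, whose first bases lie at -27 and -14. That of Egln3 held 1 at -229, and that of Pfkp held 3 at -136, -68 and -23. That of Adm held 2 on the other strand, at -90 and -54. Only windows that held a core were picked to be shown, so its presence in all 4, Adm among them, follows from that choice. No window of Eno2 or Tpi1, both higher in KO, held one. These are matches of letters in a window, not measured binding sites.

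The enzymes of the upper pathway differed by isoform. Hk2, the inducible hexokinase that traps glucose in the cell, read 2620.3, 2799 and 2727 in KO and 675, 766 and 933 in WT arrays at 30 h. In the 18 h arrays the values were 3033, 2608 and 2428 in KO and 898, 1013 and 917 in WT. Every KO array was above every WT array, and the log2 difference was 1.77 (SE 0.11, adjusted p = 3.37e-10) at 30 h and 1.49 (SE 0.11, adjusted p = 2.73e-09) at 18 h. For Hk1, the hexokinase found in most tissues, the log2 difference was 0.18 (95% interval 0.0019 to 0.35, adjusted p = 0.0839) at 30 h and 0.10 (-0.07 to 0.28, adjusted p = 0.294) at 18 h. Its brightest probe set carries an accession shared with 16 probe sets annotated to both Rpl17 and Hk1, so its signal may not be Hk1's alone. The probe set with RefSeq accessions for Hk1 gave 0.18 at 30 h (adjusted p = 0.0352) and 0.16 at 18 h (adjusted p = 0.0521), so the 30 h call depends on the probe set. The call at 30 h was also gained without KO 30 h replicate 3 (0.26) and without KO 18 h replicate 3 (0.18).

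Of the phosphofructokinases, which catalyse the committed step of glycolysis, the platelet isoform Pfkp was higher in KO and the muscle isoform Pfkm lower. Pfkp read 4449.9, 5228 and 4568 in KO and 935, 1012 and 1089.9 in WT arrays at 30 h, and 5958, 5882 and 5762 in KO and 1326, 1228 and 1130.2 in WT arrays at 18 h. All KO arrays were far above all WT arrays at both times, and the log2 difference was 2.21 (SE 0.08, adjusted p = 4.37e-13) and 2.24 (SE 0.08, adjusted p = 3.2e-13). Pfkm read 1512, 1503 and 1448 in KO and 2124, 2387 and 2364 in WT arrays at 30 h, and 2313, 2174 and 2299.6 in KO and 2656, 2642 and 2556 in WT arrays at 18 h. All KO arrays were below all WT arrays at each time, with a log2 difference of -0.62 (SE 0.07, adjusted p = 6.45e-07) at 30 h and -0.21 (SE 0.07, adjusted p = 0.012) at 18 h. The smaller 18 h difference was no longer called without KO 18 h replicate 2 (-0.18, adjusted p = 0.0598) or with array medians set equal (-0.16).

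The liver isoform Pfkl read 3481, 3481 and 3008 in KO and 2822, 2967 and 2942 in WT arrays at 30 h, and 2902, 2036 and 2188 in KO and 2936, 2921 and 3415 in WT arrays at 18 h. At 18 h all KO arrays were lower than all WT arrays, by a log2 difference of -0.39 (SE 0.11, adjusted p = 0.00478), with replicate 1 close to the WT values and the other 2 well below them. At 30 h all KO arrays were higher than all WT arrays, but the difference of 0.19 (95% interval -0.04 to 0.42, adjusted p = 0.16) was not called. It was called without KO 18 h replicate 1, which is not in that comparison and enters through the shared estimate of spread.

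Aldoc, the brain-type aldolase that splits fructose bisphosphate, was the member whose KO level differed most between the times. It read 303, 338 and 312 in KO and 170.3, 168 and 170.1 in WT arrays at 30 h. The arrays taken at 18 h gave 1061, 1147 and 1196 in KO and 193, 158 and 131 in WT. The KO 18 h arrays were the only bright ones, the KO 30 h arrays were intermediate, and 5 of the 6 WT arrays were below the brightness limit. The log2 difference was 0.84 (SE 0.11, adjusted p = 5.88e-06) at 30 h and 2.72 (SE 0.11, adjusted p = 1.63e-12) at 18 h. The common aldolase Aldoa was higher in KO by 0.51 and 0.55, without overlap at either time.

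The lower pathway, which yields ATP and pyruvate, was higher in KO throughout. Pgk1, the first ATP-yielding kinase of the pathway, read 12225, 12764 and 12529.7 in KO and 8249, 7930.3 and 8359.8 in WT arrays at 30 h. At 18 h it read 13322, 14107 and 14400.5 in KO and 9649, 8738 and 9617 in WT arrays. No KO array overlapped a WT array, and the log2 difference was 0.61 (SE 0.05, adjusted p = 1.74e-08) at 30 h and 0.58 (SE 0.05, adjusted p = 2.81e-08) at 18 h. Eno2, the neuron-type enolase, read 1748, 2060.0 and 1806 in KO and 443, 538 and 625 in WT arrays at 30 h. Its 18 h values were 2807, 2846 and 2853 in KO and 904, 1149 and 932 in WT arrays. It was higher in every KO array, with a log2 difference of 1.79 (SE 0.11, adjusted p = 7.87e-10) at 30 h and 1.50 (SE 0.11, adjusted p = 6.31e-09) at 18 h.

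Ldha, the lactate dehydrogenase subunit that favours lactate formation, read 14254, 14102 and 13116 in KO and 8792, 8516 and 9102 in WT arrays at 30 h. In the 18 h arrays the values were 13808, 12237 and 12701 in KO and 10142, 9766 and 9947 in WT. The groups did not overlap, and the log2 difference was 0.65 (SE 0.05, adjusted p = 1.31e-08) at 30 h and 0.37 (SE 0.05, adjusted p = 8.11e-06) at 18 h. The isomerase Tpi1, the mutase Pgam1 and the pyruvate kinase Pkm were higher in KO by 0.53, 0.40 and 0.70 at 30 h and by 0.38, 0.25 and 0.63 at 18 h, each without overlap. Pgk1, Pgam1 and Pkm each had more than 1 probe set, some of which gave identical values, and all were called higher in KO at both times.

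The regulators of flux did not move together. Pfkfb3, the bifunctional enzyme known for making the activator of phosphofructokinase in proliferating cells, read 233, 274 and 234 in KO and 1279, 1383 and 1345 in WT arrays at 30 h. The arrays taken at 18 h gave 502, 508 and 466 in KO and 1319.8, 1452 and 1359.9 in WT. Every KO array was below every WT array, with a log2 difference of -2.36 (SE 0.09, adjusted p = 3.62e-13) at 30 h and -1.46 (SE 0.09, adjusted p = 1.99e-10) at 18 h, the largest fall of the 18 glycolysis genes. Its relative Pfkfb4, also known as a hypoxia-induced gene, was higher in KO, by 0.70 at 30 h and 0.50 at 18 h.

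Pdk1, a kinase that inactivates pyruvate dehydrogenase and so keeps pyruvate from the mitochondrial cycle, read 2879, 3374 and 3144 in KO and 1703, 1911 and 1831 in WT arrays at 30 h. At 18 h it read 4156, 3036 and 3021 in KO and 2776, 2841 and 2424 in WT arrays. At 30 h the KO arrays were well above the WT arrays (0.78, SE 0.11, adjusted p = 1.1e-05), while at 18 h KO replicate 1 stood above the rest and the other 2 lay a little above WT (0.33, SE 0.11, adjusted p = 0.0143). The 18 h difference became 0.18 (adjusted p = 0.0823) without KO 18 h replicate 1 and 0.26 (adjusted p = 0.0687) without WT 18 h replicate 3, and was then not called.

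**Figure D3:**
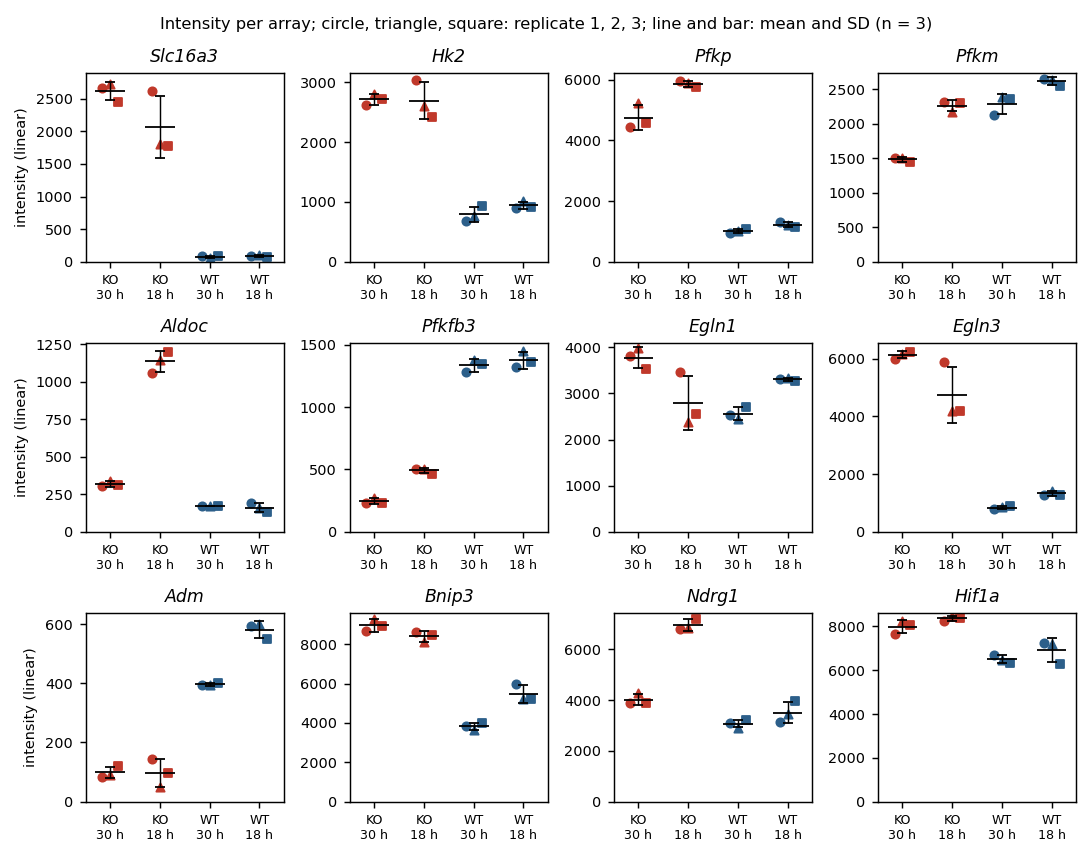
Linear intensity of 12 genes in each array, by group (KO 30 h, KO 18 h, WT 30 h, WT 18 h), each panel with its own axis from 0. Circles, triangles and squares are replicates 1, 2 and 3, and lines with bars are the mean and SD (n = 3). KO 18 h replicate 1 is the highest of its group for Slc16a3, Egln1 and Egln3, where it lies near or within the KO 30 h values.

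In the oxygen-sensing branch, the transcript of the alpha subunit Hif1a differed little and that of the hydroxylase Egln3 differed much. Hif1a, which encodes the main oxygen-regulated alpha subunit and is controlled chiefly as a protein, read 7665, 8235 and 8076 in KO and 6693, 6483 and 6319 in WT arrays at 30 h. Its 18 h values were 8242, 8489 and 8385 in KO and 7259, 7199 and 6302 in WT arrays. All KO arrays were above all WT arrays at each time, by a log2 difference of 0.30 (SE 0.06, adjusted p = 0.000316) at 30 h and 0.28 (SE 0.06, adjusted p = 0.000476) at 18 h. The arrays measured RNA, so the level of the HIF protein was not measured.

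Egln3, a prolyl hydroxylase that acts on HIF alpha and is itself a HIF target, read 5991, 6175 and 6235 in KO and 776, 844 and 885 in WT arrays at 30 h. In the 18 h arrays the values were 5869, 4183 and 4182 in KO and 1289, 1422 and 1277 in WT. The groups were far apart at both times, with a log2 difference of 2.86 (SE 0.11, adjusted p = 5.05e-13) at 30 h and 1.81 (SE 0.11, adjusted p = 1.99e-10) at 18 h. In KO at 18 h, replicate 1 lay near the 30 h values and the other 2 were 0.49 below it on the log2 scale.

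Egln1, the hydroxylase that does most of the oxygen sensing in many cells, read 3806, 3985 and 3536 in KO and 2539, 2442 and 2708 in WT arrays at 30 h. The arrays taken at 18 h gave 3459.8, 2379 and 2545 in KO and 3315, 3330.4 and 3268 in WT. It was higher in all KO arrays at 30 h (0.56, SE 0.10, adjusted p = 0.000241), and at 18 h 2 KO arrays were below and replicate 1 above all WT arrays (-0.26, SE 0.10, adjusted p = 0.0401). That 18 h call was lost under 11 of the alternatives. It became -0.15 (adjusted p = 0.232) without KO 18 h replicate 2, -0.20 (adjusted p = 0.145) without KO 18 h replicate 3, and -0.42 (adjusted p = 6.25e-05) without KO 18 h replicate 1. It was also lost when WT 18 h replicates 1, 2 or 3 or WT 30 h replicate 1 was left out, with values between -0.27 and -0.25.

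Of the other oxygen-dependent enzymes, P4ha2 was higher in KO and 2 were not called at either time. P4ha2, a catalytic subunit of the collagen prolyl hydroxylase, read 2304, 2611 and 2406 in KO and 1003, 1072 and 1199.9 in WT arrays at 30 h, and 3211, 3416 and 3229.8 in KO and 1549.6, 1496 and 1453 in WT arrays at 18 h. The groups did not overlap, and the log2 difference was 1.15 (SE 0.08, adjusted p = 1.41e-09) at 30 h and 1.12 (SE 0.08, adjusted p = 1.64e-09) at 18 h. For the other catalytic subunit, P4ha1, the difference was 0.02 (95% interval -0.12 to 0.16) at 30 h and 0.14 (-0.0006 to 0.28, adjusted p = 0.0807) at 18 h. Without KO 18 h replicate 1 the 18 h difference of P4ha1 was 0.21 (adjusted p = 0.00738) and called. For Kdm3a, a histone demethylase induced by hypoxia, it was 0.03 (-0.14 to 0.20) at 30 h and -0.13 (-0.30 to 0.04) at 18 h. Without WT 18 h replicate 3 the 18 h value was -0.22 (adjusted p = 0.0192) and called.

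The secreted factors went opposite ways. Vegfa, the main growth factor for blood vessels, read 3746, 4088 and 4017 in KO and 2247, 2437 and 2624 in WT arrays at 30 h. At 18 h it read 5095, 4804 and 4845 in KO and 2584, 2998 and 2640.3 in WT arrays. Every KO array was above every WT array, by 0.70 (SE 0.07, adjusted p = 4.75e-07) at 30 h and 0.84 (SE 0.07, adjusted p = 3.41e-08) at 18 h. Adm, which encodes the vasodilator peptide adrenomedullin and is a classical hypoxia-induced gene, read 85.0, 90.5 and 121 in KO and 393, 394 and 401 in WT arrays at 30 h. Its 18 h values were 144, 50.0 and 95.6 in KO and 593, 601 and 549.5 in WT arrays. It was below the brightness limit in all 6 KO arrays and above it in all 6 WT arrays, with a log2 difference of -1.86 (SE 0.21, adjusted p = 1.3e-06) at 30 h and -2.50 (SE 0.21, adjusted p = 2.6e-08) at 18 h. With offsets of 1 and 64 the 30 h difference became -2.01 and -1.51, and that at 18 h -2.70 and -2.05.

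The 6 remaining genes, a mixed set grouped here as mitochondria and stress, were called higher in KO at both times, beside 18.9% of all genes. Bnip3, a receptor for the removal of mitochondria, read 8670.0, 9296 and 8909 in KO and 3854, 3648 and 4000.0 in WT arrays at 30 h. In the 18 h arrays the values were 8612, 8096 and 8476 in KO and 5988, 5199.5 and 5232 in WT. The log2 difference was 1.22 (SE 0.06, adjusted p = 3.1e-11) at 30 h and 0.62 (SE 0.06, adjusted p = 1.83e-07) at 18 h, and its second probe set gave 1.45 and 0.86. Mxi1, a MAX-binding repressor that opposes MYC, read 1756, 1968 and 1870.5 in KO and 668, 643 and 717 in WT arrays at 30 h, and 2128, 1926 and 1953 in KO and 965, 884 and 935 in WT arrays at 18 h. Every KO array was above every WT array of its time, and the log2 difference was 1.44 (SE 0.08, adjusted p = 7.46e-11) at 30 h and 1.10 (SE 0.08, adjusted p = 2.47e-09) at 18 h.

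Ndrg1, a stress gene strongly induced by hypoxia in many cells, read 3895, 4265 and 3867 in KO and 3096, 2912 and 3218 in WT arrays at 30 h. The arrays taken at 18 h gave 6804, 6852 and 7203 in KO and 3142, 3439 and 3943 in WT. The KO arrays were the highest of all at 18 h and moderately above WT at 30 h, with a log2 difference of 0.38 (SE 0.08, adjusted p = 0.000448) at 30 h and 0.99 (SE 0.08, adjusted p = 7.05e-09) at 18 h. Higd1a, a mitochondrial inner membrane protein, was higher in KO by 0.88 at 30 h and 0.81 at 18 h, and Ankrd37, a small ankyrin repeat protein induced by HIF, by 0.97 and 0.72. Ddit4, an inhibitor of mTOR signalling, was higher by 0.20 at 30 h (adjusted p = 0.0206) and 0.42 at 18 h. The 30 h call for Ddit4 was lost without KO 30 h replicate 1 (0.16, adjusted p = 0.0908) or 2 (0.20, adjusted p = 0.0576) and without WT 30 h replicate 1 (0.19, adjusted p = 0.0658) or 2 (0.18, adjusted p = 0.0784).

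Between the times, fewer of these genes differed, and more were lower than higher at 30 h. In KO cells 3 of the 32 were called higher at 30 h than at 18 h and 13 lower, 16 in all, against 39.3% of all genes tested, 20.9% higher and 18.4% lower. The median log2 difference was -0.09, beside 0.02 over all genes. The 30 h arrays all lay above the 18 h arrays for 5 genes and all below for 15, beside 46.2% of all genes apart in either direction, 24.3% above and 21.9% below. These comparisons share the KO 18 h and KO 30 h arrays with the genotype comparisons above. Markers of other cell types moved with time too. The 7 muscle markers, 4 of them bright enough to be tested, summed to 7100 to 7881 at 30 h and 5624 to 6921 at 18 h in KO, and to 6628 to 8045 at 30 h and 3119 to 3561 at 18 h in WT. Among them Acta2, the smooth muscle actin that activated fibroblasts also make, was higher at 30 h by 0.51 in KO and 2.14 in WT. Des went the other way, at -0.65 in KO and, not called, -0.23 in WT. Myh11 and Myod1 were called in neither genotype. The 7 macrophage and blood markers, of which 4 were tested, summed to 1851 to 2006 at 30 h and 2336 to 3997 at 18 h in KO, and to 1838 to 1990 at 30 h and 2124 to 2191 at 18 h in WT. In KO at 30 h Cd68 was lower, at -1.42, Cd14 was higher, at 0.55, and Csf1r and Itgam were not called. None of the 4 was called in WT. The part of these markers in the time differences was not tested.

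The 3 genes higher at 30 h in KO were Pfkl (0.50, SE 0.11, adjusted p = 0.00163), Egln1 (0.45, SE 0.10, adjusted p = 0.00253) and Egln3 (0.39, SE 0.11, adjusted p = 0.00781), whose array values are given above. For Egln3 the call was lost without KO 18 h replicate 2 (0.31, adjusted p = 0.053). KO 18 h replicate 1 was the highest of its group for all 3 genes, by 0.46, 0.49 and 0.49 above the mean of the other 2, and without it the log2 differences became 0.65, 0.61 and 0.55. Without that array Slc16a3 (0.54, adjusted p = 0.0027) and Ldha (0.15, adjusted p = 0.0297) were called higher at 30 h as well, where the comparison with all arrays gave 0.36 (adjusted p = 0.0625) and 0.10 (adjusted p = 0.149).

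The largest falls at 30 h in KO were those of Aldoc (-1.79, SE 0.11, adjusted p = 4.01e-08), Pfkfb3 (-0.95, SE 0.09, adjusted p = 1.08e-06) and Ndrg1 (-0.79, SE 0.08, adjusted p = 1.72e-06), with no overlap between the times. Pfkm (-0.60, SE 0.07, adjusted p = 5.86e-06), Eno2 (-0.60, SE 0.11, adjusted p = 0.000603) and P4ha2 (-0.43, SE 0.08, adjusted p = 0.000374) followed. Higd1a, P4ha1, Vegfa, Pfkp, Ddit4, Aldoa and Pgk1 were lower by between 0.38 and 0.16. The second probe set of Higd1a gave -0.13 (adjusted p = 0.396), so its call depends on the probe set. The call for Pgk1 (-0.16) was lost without KO 30 h replicate 1 (-0.14, adjusted p = 0.0656), KO 18 h replicate 2 (-0.15, adjusted p = 0.0742) or KO 18 h replicate 3 (-0.13, adjusted p = 0.0829). For Slc2a1, Hk2, Pkm and Hif1a the difference was between -0.07 and 0.03 and was not called.

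In WT cells none of the 32 was called higher at 30 h and 9 were called lower, against 3.96% of all genes tested called, 2.41% higher and 1.55% lower. At an unadjusted p under 0.05 by limma, 0 were higher and 21 lower, beside 9.9% and 8.42% of all genes. The median log2 difference was -0.20, beside -0.01 over all genes, and 31 of the 32 values were below 0, the exception being Aldoc at 0.09. For 18 of the 32 every 30 h array was below every 18 h array, beside 12.4% of all genes. The 9 genes were Eno2 (-0.88, SE 0.11, adjusted p = 0.00061), Egln3 (-0.66, SE 0.11, adjusted p = 0.003), Pdk1 (-0.56, SE 0.11, adjusted p = 0.00979), Bnip3 (-0.51, SE 0.06, adjusted p = 0.000339), P4ha2 (-0.46, SE 0.08, adjusted p = 0.00447), Mxi1 (-0.45, SE 0.08, adjusted p = 0.00489), Higd1a (-0.44, SE 0.10, adjusted p = 0.0244), Aldoa (-0.20, SE 0.05, adjusted p = 0.0429) and Pgk1 (-0.19, SE 0.05, adjusted p = 0.0431).

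The number of calls in WT depended on single arrays: it was 5 without WT 30 h replicate 1 and 16, all lower, without KO 18 h replicate 1, which enters only through the shared estimate of spread. The share of all genes called moved as well, to 1.18% and 7.39%, against 3.96% with all arrays. The calls for Eno2, Egln3, Bnip3, P4ha2 and Mxi1 held whichever array was left out. Pdk1 lost its call without WT 30 h replicate 1 (-0.51, adjusted p = 0.0605) or WT 18 h replicate 2 (-0.51, adjusted p = 0.0547). Higd1a lost it on its second probe set (-0.31, adjusted p = 0.141) and without WT 30 h replicate 1 or 2 or WT 18 h replicate 1 or 2, with values of -0.43 to -0.38, and Aldoa and Pgk1 lost it without most single arrays, with values of -0.23 to -0.15 and -0.20 to -0.16. Egln1 (-0.37, SE 0.10, adjusted p = 0.0595) was not called in WT with all arrays, and was called without KO 18 h replicate 1 or 2.

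**Figure D4:**
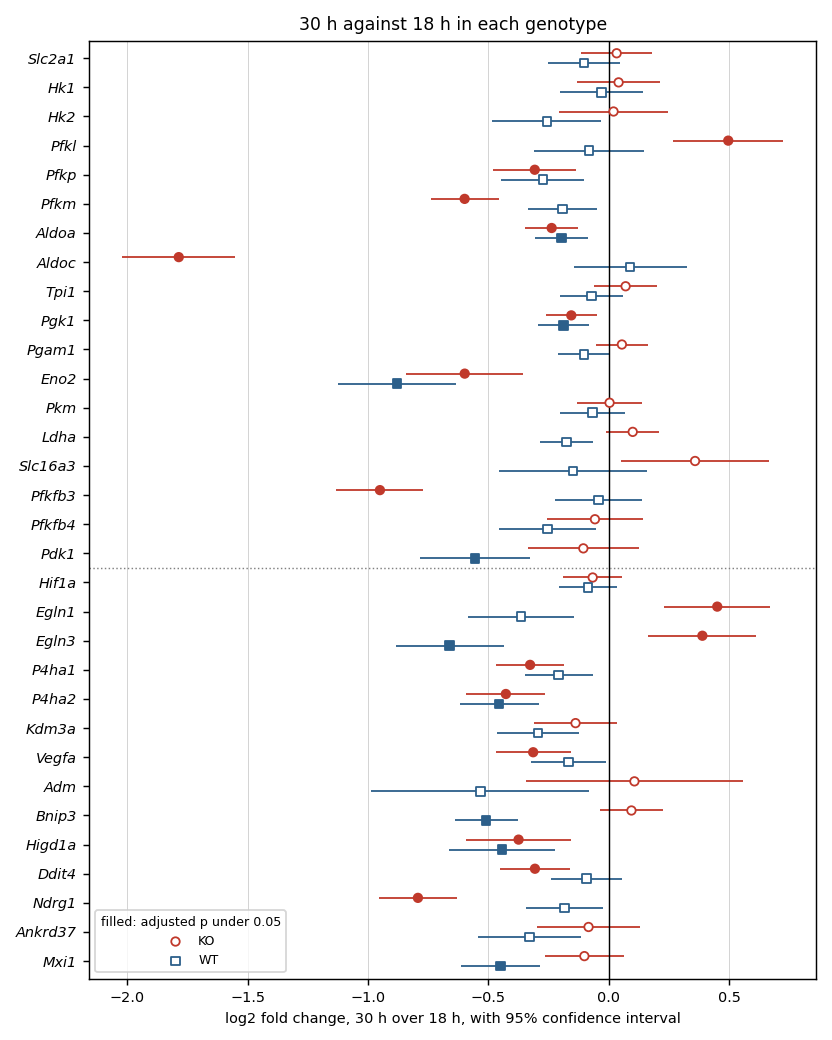
Log2 fold change of 30 h over 18 h for each of the 32 genes in KO (circles) and WT (squares), with 95% confidence intervals from limma; filled symbols are called. Aldoc lies farthest left in KO at -1.79, where its WT value is 0.09, and Egln1 and Egln3 lie right of 0 in KO and left of it in WT.

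The change with time differed between the genotypes for 11 of the 32 genes, against 20.3% of all genes tested, in a test of the difference itself (KO minus WT). It was positive for 7 (10.2% of all genes) and negative for 4 (10.1%). Egln3 differed by 1.05 (SE 0.15, adjusted p = 0.000303): it was higher at 30 h in KO and lower at 30 h in WT. Egln1 differed by 0.82 (SE 0.15, adjusted p = 0.00136), with the same pair of directions, of which the WT one was not called. Bnip3 differed by 0.60 (SE 0.09, adjusted p = 0.000335), from a fall in WT and a KO difference of 0.09 that was not called. Pfkl differed by 0.58 (SE 0.15, adjusted p = 0.0138), from the rise in KO.

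The negative differences were those of Aldoc (-1.87, SE 0.16, adjusted p = 6.44e-06), Pfkfb3 (-0.91, SE 0.12, adjusted p = 0.00019), Ndrg1 (-0.61, SE 0.11, adjusted p = 0.00119) and Pfkm (-0.41, SE 0.09, adjusted p = 0.00684), each lower at 30 h in KO with a WT value that was not called. Pdk1 (0.45, SE 0.15, adjusted p = 0.0476), Mxi1 (0.35, SE 0.11, adjusted p = 0.0349) and Ldha (0.28, SE 0.07, adjusted p = 0.0141) were nearest the threshold. The call for Pdk1 was lost without any 1 of 9 arrays, with values of 0.37 to 0.49, that for Mxi1 without any 1 of 7, with values of 0.31 to 0.34, and that for Ldha without KO 18 h replicate 2 (0.24, adjusted p = 0.0535). With array medians set equal each of these calls was lost (0.41, 0.30 and 0.23). Those of Pdk1 and Mxi1 were also lost with cyclic loess scaling (0.43 and 0.31), and those of Pdk1 and Ldha with no intensity trend. Pdk1 lost its call without the brightness filter and with a replicate block too. Without KO 18 h replicate 1 the count was 14, beside 29.7% of all genes, and Slc16a3 (0.69, adjusted p = 0.00632), Adm (0.94, adjusted p = 0.00637) and Pgam1 (0.20, adjusted p = 0.0481) were called as well.

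Further genes of the same pathways, from lists of related genes, are given for comparison. The lists, too, were chosen with earlier results of these data known. Of 24 other hypoxia-responsive genes, 16 were higher and 4 lower in KO at 30 h, and 17 higher and 4 lower at 18 h. Over all genes tested 24.3% were higher and 28.6% lower at 30 h, and 26.3% higher and 33.8% lower at 18 h, the background for each list here. The largest rises were those of the lipoprotein receptor Vldlr (4.07 at 30 h and 3.87 at 18 h), the vasoconstrictor peptide gene Edn1 (2.50 and 3.73, against WT means of 68.8 and 81.7 that lie under the brightness limit), the transferrin receptor Tfrc (2.64 and 2.94) and the adenylate kinase Ak4 (3.22 and 2.43). The falls were led by the lipase inhibitor Angptl4 (-1.08 and -1.70), the collagen lysyl hydroxylase Plod1 (-0.55 and -0.59) and the heme oxygenase Hmox1 (-0.57 and -0.44). In that list 2 genes were higher and 9 lower at 30 h in KO, beside 20.9% and 18.4% of all genes, and 0 higher and 6 lower in WT, beside 2.41% and 1.55%. The median over the 24 was 0.46 at 30 h and 0.55 at 18 h.

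Of 14 genes of the HIF machinery, 4 were higher and 4 lower in KO at 30 h, and 4 higher and 6 lower at 18 h, 8 and 10 in all, beside 52.9% and 60.1% of all genes. Epas1, the second HIF alpha subunit, was higher by 0.99 at 30 h and 1.66 at 18 h, and the beta subunit Arnt2 by 2.12 and 2.32. The common beta subunit Arnt was lower in KO, with log2 differences of -0.70 and -0.30. Vhl, the subunit that recognises hydroxylated HIF alpha for degradation, differed by 0.22 (adjusted p = 0.0177) at 30 h and 0.14 (adjusted p = 0.108) at 18 h. The coactivators Ep300 and Crebbp were lower, with log2 differences of -0.41 and -0.31 at 30 h and -1.09 and -1.09 at 18 h.

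Of 14 other genes of glycolysis and lactate, 6 were higher and 2 lower in KO at 30 h, and 8 higher and 3 lower at 18 h. Eno3, the muscle enolase, was higher by 3.31 at 30 h and 2.71 at 18 h. The lactate dehydrogenase subunit Ldhb was higher by 0.89 and 0.52. Slc16a1, the more widely expressed monocarboxylate transporter, was lower, at -0.41 and -0.45, and Pfkfb2 at -0.95 and -1.01. Gapdh had probe sets annotated to several genes only and was not analysed here.

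Of 12 genes of pyruvate entry into mitochondria, 3 were higher and 5 lower in KO at 30 h, and 4 of each at 18 h. The pyruvate dehydrogenase kinase Pdk3 was higher by 0.78 and 1.01, while the related kinase Pdk2 was lower, at -0.86 and -0.25. Pdk4, of the same family, was lower at 30 h (-0.75) and not called at 18 h (0.16). Pyruvate carboxylase, Pcx, was lower, at -1.50 and -0.53. Of 3 gluconeogenesis genes 1, Pck2, was lower at both times (-0.64 and -0.36). Of 10 genes of the MYC and MAX network, 1 was higher and 6 lower at each time, beside 24.3% and 28.6% of all genes at 30 h and 26.3% and 33.8% at 18 h. The MAX-binding repressors Mxd4 and Mxd1 were lower, at -2.27 and -0.69 at 30 h and -1.72 and -0.30 at 18 h. Max itself was lower too, at -0.28 at 30 h and -0.77 at 18 h, and Mlx at -0.44 and -0.59. Myc was lower at 30 h (-0.36) and not called at 18 h (0.12).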

How the data were processed

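RNA of 12 samples, grouped by the labels, was measured on 1 Affymetrix array each. Per the submitters' processing notes, the authors used PLIER 2.0 in Affymetrix Expression Console 1.1, and deposited a linear intensity for each probe set. The sources used here do not give how arrays were normalized to each other. Of 35557 probe sets, 21789 have 1 gene symbol in the platform annotation, 1621 several and 12147 none listed, and genes were named only from the first kind, with 21698 matched by Entrez number to RefSeq.

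Each gene was read by its probe set of highest mean, as log2(intensity + 16), a scale that understates changes of dim genes. Genes with a mean under the 30th percentile (an intensity of 174.8) were left out. With limma 3.58.1 (R 4.3.3), 1 model of 4 group means was fitted to the 12 arrays together (eBayes with an intensity trend; 8 residual and 7.98 prior degrees of freedom), with two-sided tests, Benjamini-Hochberg adjustment over the 13956 genes of a comparison, and calls under 0.05. The code was checked on simulated data. With 3 arrays a group, the number of arrays limits the precision. The comparisons were KO against WT at each time, 30 h against 18 h within KO and within WT, and whether those time effects differed.

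Alternatives were offsets of 1 and 64, quantile, median and cyclic loess scaling, leaving out the brightness filter or raising it to the 50th percentile, no intensity trend, the mean of all probe sets, only the arrays compared, a replicate block, and leaving out single arrays. Reading Hk1 by its RefSeq probe set was added after seeing the data. Members and lists were chosen with earlier results of these data known. Given with every array value are, in each comparison, the called members with the 6 largest rises and 6 largest falls, and Hif1a, Egln1, Egln3, Slc2a1, Slc16a3, Ldha, Pgk1, Pdk1, Bnip3 and Vegfa. Of each list of related genes at most 3 rises and 3 falls are named, with Gapdh, Epas1, Arnt and Vhl, and further ones named, Mxd1 among them, were picked after their values were seen. Marker lists were fibroblast, macrophage and blood, endothelial, epithelial, neural and glial, and muscle.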

Additional observations from a re-analysis of the deposited data

Results flagged for a closer look

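For 11 of the 32 tested genes, the change between 30 h and 18 h differed between KO and WT cells in limma's test of the difference itself (KO minus WT, log2 scale), beside 20.3% of all genes tested. Among the glycolysis genes the difference was -1.87 for Aldoc, -0.91 for Pfkfb3 and -0.41 for Pfkm, and 0.58 for Pfkl, 0.45 for Pdk1 and 0.28 for Ldha. Among the other hypoxia genes it was 1.05 for Egln3, 0.82 for Egln1, 0.60 for Bnip3 and 0.35 for Mxi1, and -0.61 for Ndrg1. Aldoc, Pfkfb3, Ndrg1 and Pfkm were lower at 30 h in KO, by 1.79, 0.95, 0.79 and 0.60, and had WT values of 0.09, -0.04, -0.18 and -0.19 that were not called. Egln1 and Egln3 were higher at 30 h in KO, by 0.45 and 0.39, and had WT values of -0.37 and -0.66, of which that of Egln3 was called. KO 18 h replicate 1 stood nearer to the KO 30 h arrays than its group did, and without it the count was 14, with 10 positive and 4 negative, beside 29.7% of all genes. The part of that array's position and of the marker differences in these values was not tested.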

How the results depend on the processing

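Neither scaling, filter, offset nor a left-out array turned a called difference of the 32 genes to the opposite direction in any of the 5 comparisons. The number called was 27 to 29 at 30 h and 27 to 29 at 18 h (KO against WT) when single arrays were left out, and 26 to 30 and 27 to 30 under the other settings. For 30 h against 18 h it was 14 to 18 and 15 to 17 in KO. In WT it was 5 to 16 and 7 to 14, the highest under cyclic loess scaling, so the WT count of 9 is the least certain. For the difference of time effects it was 8 to 14 and 8 to 11, with 7 positive and 4 negative calls as deposited and 4 of each with array medians set equal. Leaving out KO 18 h replicate 1 gave 29 calls at 30 h, 29 at 18 h, 18 for time in KO, 16 for time in WT and 14 for the difference. Under no scaling did the median of all genes tested move by 0.1 or more on the log2 scale. Of the 32 genes, 29 kept their side of the threshold at 30 h under every alternative in which they were tested, 27 at 18 h, 28 for time in KO, 20 for time in WT and 26 for the difference. Members below the stricter brightness limit, at the 50th percentile, gave no value there.

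With the replicate number as a block the counts were 28 at 30 h, 29 at 18 h, 16 for time in KO, 7 for time in WT and 10 for the difference. Over 18 pairs with the same number the deviations from the group means correlated at -0.456 to 0.454, and only 4 pairs exceeded 0.1. The largest values were between replicates 2 of WT 18 h and WT 30 h (0.454), WT 30 h and KO 30 h (0.343), and WT 18 h and KO 30 h (0.33). With different numbers, WT 30 h replicate 1 and KO 30 h replicate 3 reached 0.463. These values do not settle whether some numbers mark shared cultures.

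Dim values limit Slc16a3 in WT, Adm in KO and Aldoc in WT, whose differences changed most with the offset among the 32 genes, and Edn1 in WT. RNA levels, 2 times and 3 arrays a group set the other limits.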
